A study of Mus musculus with 21 samples.

Results

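Epcam and 7 further genes (Atrnl1, Afp, Cep85, Extl1, Grb7, Adam8 and Ets2) were followed through all libraries of sorted B cells from the peritoneal cavity of mice with and without TET2. These 8 of 56953 counted genes were picked from values of the B-1 libraries themselves, as genes lower in TET2-KO than in WT libraries of B-1a cells, B-1b cells or both. Levels and fold changes in B-1 cells are therefore a description without a test, and the B-2 libraries, which took no part in the choice, carry the only tests of these genes. All 8 genes passed the filter on low counts in each of the 3 subsets. For 7 of the 8 the choice matched the data in at least 1 B-1 subset, whereas Ets2 was not lower in TET2-KO libraries of either.

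RNA was sequenced from ultra-low input libraries of B-1a cells (4 WT, 4 TET2-KO), B-1b cells (4 WT, 3 TET2-KO) and B-2 cells (2 WT, 4 TET2-KO), 21 libraries in all. The mice were C57BL/6, either WT or with a global TET2 knockout, so that every cell type of the TET2-KO mice lacked the enzyme, and no treatment is named. B-1 cells were sorted as cells with low IgD, CD23 and B220, of which B-1a cells were CD5+ and B-1b cells CD5-. No age in weeks and no pooling of mice is stated in the sources used here, and libraries of one group are taken as separate samples, so the spread between them may be in part technical.

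TET2 oxidizes methylated cytosine in DNA, mostly at CG dinucleotides, and thereby takes part in the removal of methyl groups from promoters and enhancers. B-1a and B-1b cells are self-renewing, innate-like B cells of the body cavities that make natural IgM, while B-2 cells are the recirculating follicular kind. Epcam encodes an adhesion glycoprotein of epithelial cells, and Afp, Cep85, Extl1 and Grb7 encode a fetal plasma protein, a centrosomal protein, a glycosyltransferase and a signaling adaptor, none of them known as a B cell marker. The 4 sequences shown here are the 250 bases before the annotated start of Epcam, of Extl1, whose levels ran closest to those of Epcam among these genes over all 21 libraries, and of Cep85 and Afp, whose windows held the most and the fewest CG dinucleotides of the set. They were read from GRCm39 with starts from GENCODE vM39, run 5′ to 3′ along the strand of the gene, and have CG in capitals.
Epcam, chr17:87943157-87943406, plus strand: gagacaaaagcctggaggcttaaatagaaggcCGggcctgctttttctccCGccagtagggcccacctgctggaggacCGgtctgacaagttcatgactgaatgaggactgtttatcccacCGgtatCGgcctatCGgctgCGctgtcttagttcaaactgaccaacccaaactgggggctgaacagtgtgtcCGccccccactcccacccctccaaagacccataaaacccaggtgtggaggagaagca
Extl1, chr4:134111162-134111411, minus strand: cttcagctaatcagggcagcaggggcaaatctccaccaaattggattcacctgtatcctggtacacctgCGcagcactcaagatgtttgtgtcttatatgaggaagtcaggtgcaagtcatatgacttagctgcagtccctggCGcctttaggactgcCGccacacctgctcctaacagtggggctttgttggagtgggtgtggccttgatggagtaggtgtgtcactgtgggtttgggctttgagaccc
Cep85, chr4:133914424-133914673, minus strand: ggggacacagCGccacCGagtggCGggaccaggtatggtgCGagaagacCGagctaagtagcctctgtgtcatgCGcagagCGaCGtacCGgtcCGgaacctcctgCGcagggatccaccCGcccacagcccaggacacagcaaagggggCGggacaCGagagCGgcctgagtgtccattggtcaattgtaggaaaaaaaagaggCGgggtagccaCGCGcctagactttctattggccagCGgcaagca
Afp, chr5:90638334-90638583, plus strand: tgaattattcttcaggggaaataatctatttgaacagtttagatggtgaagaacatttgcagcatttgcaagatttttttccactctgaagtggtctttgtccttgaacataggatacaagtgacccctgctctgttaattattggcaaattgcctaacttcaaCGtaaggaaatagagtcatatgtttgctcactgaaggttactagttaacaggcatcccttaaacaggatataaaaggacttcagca

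The Epcam window held 8 CG dinucleotides, the Extl1 window 3, the Cep85 window 19 and the Afp window 1, against a median of 6 and quartiles of 2 and 13 over 21770 promoters of the same length. The remaining windows held 15 (Atrnl1), 13 (Ets2), 6 (Adam8) and 5 (Grb7). The genes thus had both CG-poor and CG-rich starts. Searched on both strands, the letters GGGCGG were found in 4 of 8 windows and in 29.9% of all promoters, and CCGGAA, the core of many ETS factor sites, was found in 1 of 8 windows (Cep85) and in 10.6% of all promoters. Methylation was not measured in these libraries, and a match of letters is no evidence that a factor binds.

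Total counts ran from 9667187 to 24152518 per library, and the lowest count of any of the 8 genes in any library was 4 (Afp, B-1a TET2-KO 4). Markers of the sorted subsets went against the label in libraries labelled WT 1 and WT 2. Fcer2a, which encodes CD23 of B-2 cells, was at 815 normalized CPM (counts relative to library size, scaled by TMM over all libraries) in the library labelled B-1a WT 1 and at 598 in the one labelled B-1b WT 2, but at 24.2 in the one labelled B-2 WT 1. The remaining B-1 libraries held 4.6 to 71.1 CPM and the remaining B-2 libraries 480 to 833. Zbtb32, a regulator typical of B-1 cells, showed the reverse, with 471 CPM in the library labelled B-2 WT 1 and 85.3 in that labelled B-1a WT 1. Cd5 stood at 1.6 CPM in the library labelled B-1a WT 2 and at 18.7 in that labelled B-1b WT 1, opposite to the gate. All 5 libraries of WT 1 and WT 2 held 18074 to 19255 genes with a count, against 23913 to 35576 in 14 others, and B-1a TET2-KO 4 (18941) and B-1b TET2-KO 3 (17816) were as low. None was moved to another group, and fold changes, lists, neighbours and marker sums were also computed without WT 1 and WT 2. Cd79a, which encodes a chain of the B cell receptor complex, was at 5079 to 14495 CPM throughout. Tet2 itself did not mark the genotype, with 8.45 to 27.2 CPM in WT and 12.6 to 30.1 CPM in TET2-KO libraries, where counts over the whole gene include the exons that were not deleted.

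**Figure D1:**
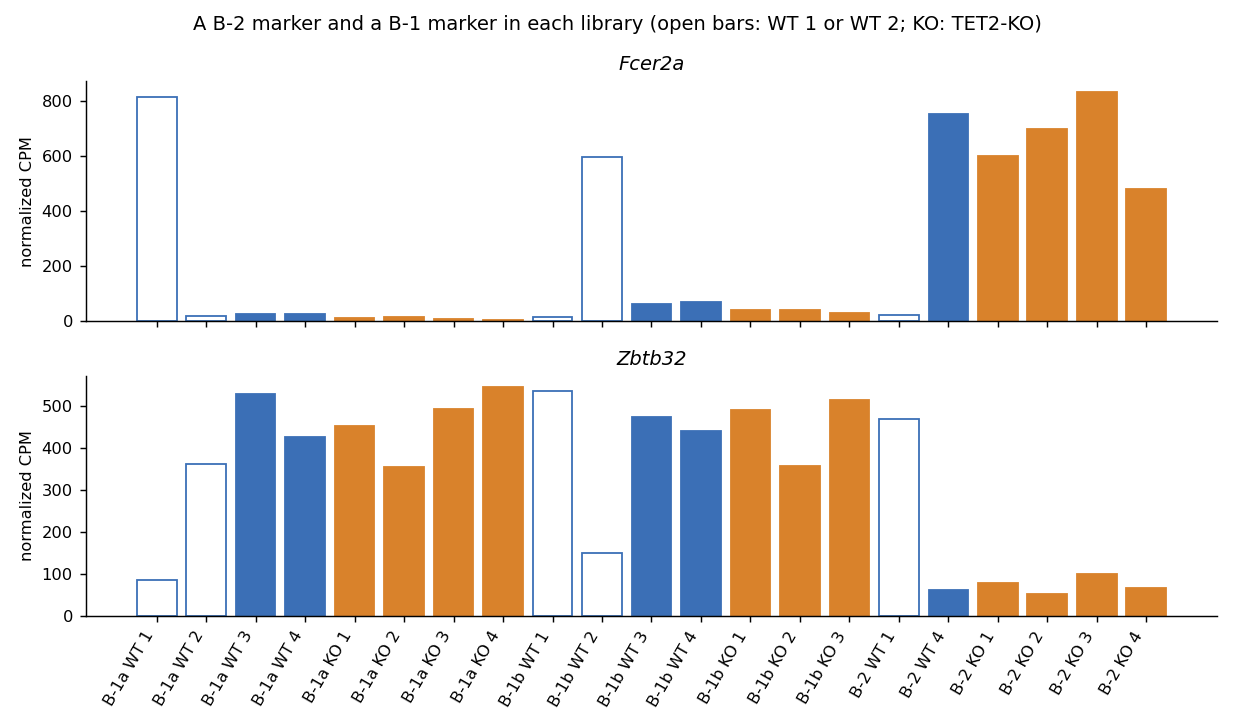
Normalized CPM of Fcer2a (a B-2 marker, top) and Zbtb32 (a B-1 marker, bottom) in each of the 21 libraries, blue for WT and orange for TET2-KO, with open bars for libraries labelled WT 1 or WT 2. The libraries labelled B-1a WT 1 (815 CPM of Fcer2a) and B-1b WT 2 (598) resemble the B-2 libraries, and the one labelled B-2 WT 1 (24.2) resembles the B-1 libraries.

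Epcam was several-fold lower in TET2-KO than in WT libraries of both B-1 subsets, while its B-2 groups, as labelled, overlapped. EpCAM joins epithelial cells to each other and is cleaved to release a signaling fragment, and among immune cells it is best known from Langerhans cells. In B-1a cells Epcam (chromosome 17, 87943407 to 87958557, plus strand, GRCm39) was at 54.8, 40.3, 111 and 62.5 CPM in WT 1 to 4 and at 12.6, 11.8, 21.01 and 11.4 CPM in TET2-KO 1 to 4. Every TET2-KO library lay below every WT library, and the lowest WT library is the one labelled WT 2. The WT mean of 67.1 ± 30.7 CPM (SD, n = 4) was 4.73 times the TET2-KO mean of 14.2 ± 4.57 (n = 4), and the mean of WT 3 and WT 4 alone was 6.11 times that of TET2-KO. In B-1b cells Epcam was at 130, 69.2, 57.0 and 39.0 CPM in WT 1 to 4 and at 17.8, 10.1 and 19.3 CPM in TET2-KO 1 to 3. Here too the groups did not overlap, with a ratio of means of 4.69, or 3.05 with WT 3 and WT 4 alone. In bulk RNA a smaller share of cells with a transcript and less transcript per cell cannot be told apart.

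In B-2 cells Epcam was at 19.98 CPM in the library labelled WT 1, at 30.2 in WT 4, and at 23.2, 16.5, 38.9 and 15.2 CPM in TET2-KO 1 to 4. The WT values lay within the range of TET2-KO libraries, and the log2 fold change was -0.08 with a 95% interval from -0.98 to 0.82 (edgeR, adjusted p = 0.923). In B-1a and B-1b cells it was -2.21 ± 0.34 (SE) and -2.19 ± 0.41. Against WT 4 alone it was -0.34, with an interval from -1.38 to 0.69. The difference between subsets was not tested, since the B-1 values had been used in the choice. In order of level by label, B-1b WT (73.8 ± 39.5 CPM) and B-1a WT came first and did not differ beyond their spread. Every library with these 2 labels lay above every library labelled B-2 WT. B-2 WT (25.1 ± 7.24, n = 2) and B-2 TET2-KO (23.4 ± 10.9, n = 4) followed, and B-1b TET2-KO (15.7 ± 4.96, n = 3) and B-1a TET2-KO were lowest, each within the SD of its neighbour. This order rests on labels that markers went against. The libraries labelled B-1a WT 1 and B-1b WT 2, with B-2 markers, held 54.8 and 69.2 CPM, more than any B-2 TET2-KO library. The one labelled B-2 WT 1, with B-1 markers, held 19.98 CPM. With that library left out, B-2 WT 4 alone stood at 30.2 CPM. That lay between 39.0 CPM, the lowest of the B-1 libraries WT 3 and WT 4, and 21.01 CPM, the highest B-1 TET2-KO library.

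**Figure D2:**
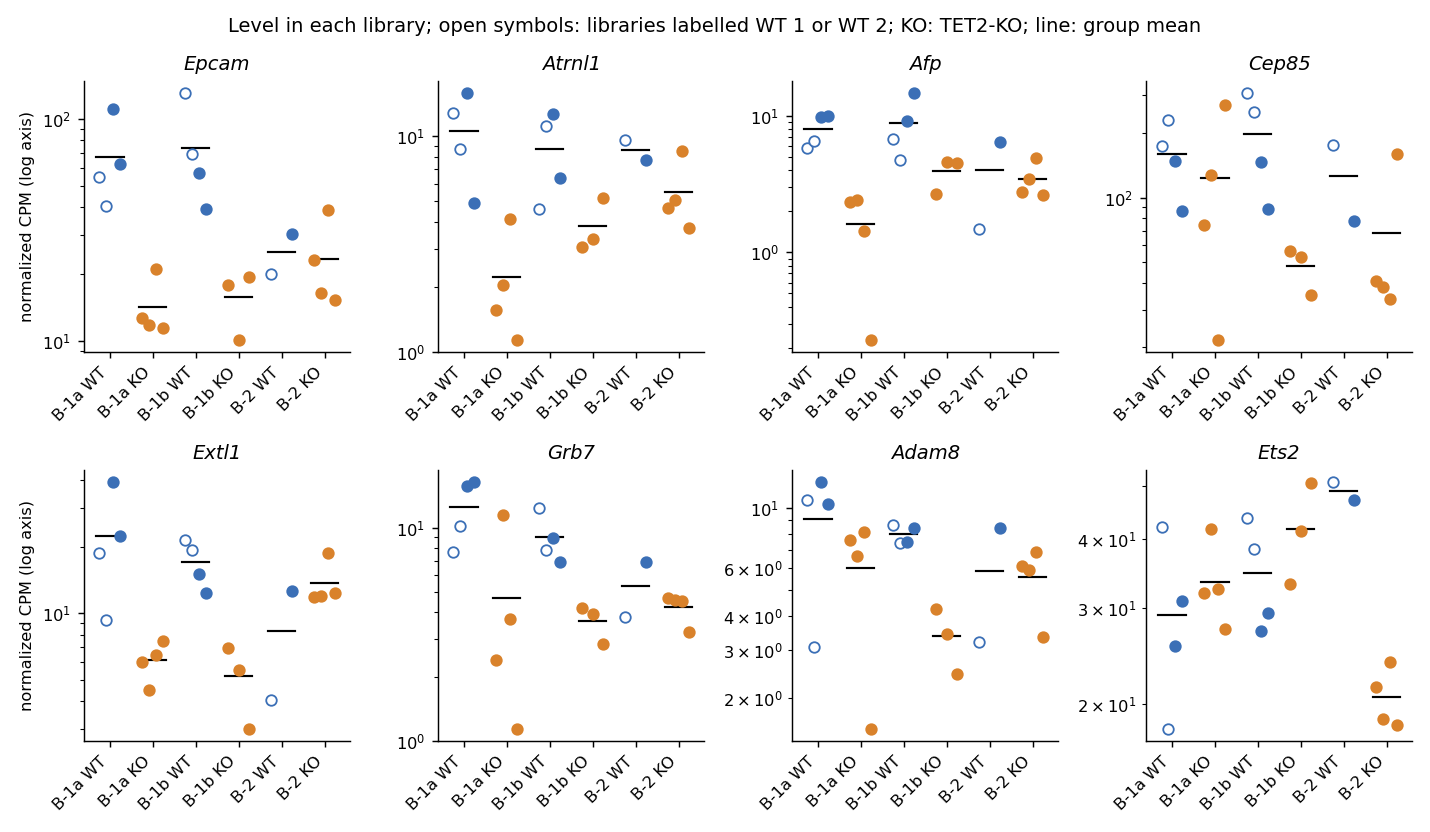
Normalized CPM (log axis) of each of the 8 genes in every library, by subset and genotype (blue WT, orange TET2-KO, open symbols for libraries labelled WT 1 or WT 2, line for the group mean). Epcam in TET2-KO B-1 libraries stays at 10.1 to 21.01 CPM, below all WT B-1 libraries at 39.0 to 130, while its B-2 groups, as labelled, overlap.

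Extl1 ran closely with Epcam, with a Pearson r of 0.81 between their log2 CPM over the 21 libraries, the highest among the 8 genes, and of 0.82 over 16 libraries without WT 1 and WT 2, where Atrnl1 was closer at 0.85 (points that share libraries, subsets and depth, so the values are a description). EXTL1 is an exostosin-like glycosyltransferase that adds N-acetylglucosamine to growing heparan sulfate chains. In B-1a cells Extl1 (chromosome 4, 134083683 to 134111161, minus strand) was at 18.6, 9.35, 39.1 and 22.3 CPM in WT 1 to 4, against 5.98, 4.51, 6.45 and 7.51 CPM in TET2-KO 1 to 4. In B-1b cells it was at 21.4, 19.3, 15.1 and 12.3 CPM in WT 1 to 4, against 6.97, 5.55 and 3.00 CPM in TET2-KO 1 to 3. All TET2-KO libraries of both subsets were below all WT libraries, by 3.66-fold of the means in B-1a and 3.29-fold in B-1b cells, or 5.03-fold and 2.65-fold with WT 3 and WT 4 alone. In B-2 cells the direction was the opposite, with 4.04 and 12.6 CPM in WT 1 and WT 4 and 11.8, 11.96, 18.6 and 12.3 CPM in TET2-KO 1 to 4. The log2 fold change of 0.73 ± 0.45 did not pass the test (edgeR, adjusted p = 0.534), and against WT 4 alone it was 0.13. The B-2 TET2-KO libraries thus held more Extl1 than any B-1 TET2-KO library, 13.7 ± 3.32 against 6.11 ± 1.25 CPM in B-1a (n = 4 each) and 5.17 ± 2.01 in B-1b cells (n = 3), which are libraries in part used in the choice.

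Atrnl1 and Afp, at lower levels, showed larger differences in B-1a than in B-1b cells. ATRNL1 is a membrane protein related to attractin. In B-1a cells Atrnl1 (chromosome 19, 57599466 to 58121775, plus strand) was at 12.8, 8.66, 15.7 and 4.87 CPM in WT 1 to 4 and at 1.57, 2.04, 4.14 and 1.14 CPM in TET2-KO 1 to 4, without overlap. In B-1b cells the groups overlapped in 1 library, with 4.60, 11.1, 12.6 and 6.41 CPM in WT 1 to 4 and 3.07, 3.32 and 5.15 CPM in TET2-KO 1 to 3. The overlapping WT library is the one labelled WT 1. The ratio of WT to TET2-KO means was 4.72 in B-1a and 2.26 in B-1b cells, or 4.63 and 2.47 with WT 3 and WT 4 alone. In B-2 cells Atrnl1 was at 9.51 and 7.71 CPM in WT 1 and WT 4 and at 4.66, 5.07, 8.54 and 3.76 CPM in TET2-KO 1 to 4, a log2 fold change of -0.62 ± 0.39 that did not pass the test (edgeR, adjusted p = 0.536). Of the 4 TET2-KO libraries, 3 lay below both WT libraries. The lncRNA Gm50287 lies in Atrnl1 on the opposite strand, and counting ignored strand, but its own mean was only 0.27 CPM.

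AFP is the major plasma protein of the fetus, made by yolk sac and fetal liver and shut off after birth, and it lies in a cluster with the albumin gene. In B-1a cells Afp (chromosome 5, 90638596 to 90656766, plus strand) was at 5.83, 6.50, 9.84 and 9.91 CPM in WT 1 to 4 and at 2.33, 2.41, 1.44 and 0.23 CPM in TET2-KO 1 to 4. In B-1b cells it was at 6.74, 4.74, 9.23 and 14.6 CPM in WT 1 to 4 and at 2.66, 4.59 and 4.53 CPM in TET2-KO 1 to 3. Neither subset showed overlap, though in B-1b cells the library labelled WT 2 lay only just above TET2-KO 2. The ratio of means was 5.01 in B-1a and 2.25 in B-1b cells, and with WT 3 and WT 4 alone it was 6.16 and 3.04. In B-2 cells the library labelled WT 1 was lowest of all at 1.49 CPM, WT 4 was highest at 6.48, and TET2-KO 1 to 4 lay between at 2.75, 3.45, 4.89 and 2.62 CPM. The log2 fold change was -0.20 ± 0.66 (edgeR, adjusted p = 0.879), -0.90 against WT 4 alone and 1.25 against the library labelled WT 1 alone, so that the choice of WT library set the direction.

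Cep85 was lower with TET2-KO in B-1b cells, but not in every library of B-1a cells. CEP85 is a protein of the centrosome that binds the centriole assembly factor STIL and restrains the kinase NEK2. In B-1b cells Cep85 (chromosome 4, 133857169 to 133914423, minus strand) was at 307, 252, 146 and 88.4 CPM in WT 1 to 4 and at 56.3, 52.9 and 35.3 CPM in TET2-KO 1 to 3. The groups did not overlap, and the ratio of means fell from 4.11 with all WT libraries to 2.43 with WT 3 and WT 4 alone. In B-1a cells it was at 174, 231, 148 and 86.2 CPM in WT 1 to 4 and at 74.6, 128, 21.6 and 270 CPM in TET2-KO 1 to 4. The TET2-KO libraries spread over a wider range than the WT libraries and included the highest value of the subset, TET2-KO 4. The log2 fold change in B-1a cells was -0.32 ± 0.61, -1.08 without TET2-KO 4, 0.02 without TET2-KO 3 and 0.09 against WT 3 and WT 4 alone. In B-2 cells Cep85 was at 176 and 77.4 CPM in WT 1 and WT 4 and at 41.0, 38.2, 33.6 and 160 CPM in TET2-KO 1 to 4. Again TET2-KO 4 stood apart, and the log2 fold change of -0.85 ± 0.66 (edgeR, adjusted p = 0.565) was -1.69 without it (edgeR, adjusted p = 0.752). In all 3 subsets the WT libraries labelled WT 1 or WT 2 held more Cep85 than WT 3 and WT 4.

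Cep85 and Extl1 lie 169.259 kb apart on chromosome 4, with 10 protein-coding genes between them, of which 3 passed the filter on low counts in B-1 cells. Of these, Pdik1l and Zfp593 had log2 fold changes of 0.06 and 0.26 in B-1a and of 0.16 and 0.86 in B-1b cells. Slc30a2, the nearest gene to Extl1, was at -0.45 and -2.71, at a mean of 0.87 CPM over all libraries. Of the 3, 2 were above 0 in both subsets.

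Grb7 and Adam8 were lower in each B-1b library of TET2-KO mice, and less evenly so in B-1a cells. GRB7 is an adaptor with an SH2 domain that binds activated ERBB receptors and focal adhesion kinase. In B-1b cells Grb7 (chromosome 11, 98337220 to 98346199, plus strand) was at 12.4, 7.89, 8.92 and 6.88 CPM in WT 1 to 4 and at 4.19, 3.92 and 2.83 CPM in TET2-KO 1 to 3, a ratio of means of 2.48, or 2.17 with WT 3 and WT 4 alone. In B-1a cells it was at 7.68, 10.2, 15.8 and 16.4 CPM in WT 1 to 4 and at 2.39, 11.4, 3.74 and 1.14 CPM in TET2-KO 1 to 4. The single overlap is TET2-KO 2, which lay above the libraries labelled WT 1 and WT 2 and below WT 3 and WT 4. In B-2 cells Grb7 was at 3.81 and 6.89 CPM in WT 1 and WT 4 and at 4.66, 4.57, 4.51 and 3.22 CPM in TET2-KO 1 to 4, with a log2 fold change of -0.32 ± 0.44 (edgeR, adjusted p = 0.714). All B-2 TET2-KO libraries were below WT 4 and 3 of 4 above the library labelled WT 1.

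ADAM8 is a membrane-bound metalloprotease of leukocytes, abundant in macrophages and granulocytes. In B-1b cells Adam8 (chromosome 7, 139558845 to 139572475, minus strand) was at 8.61, 7.41, 7.51 and 8.42 CPM in WT 1 to 4 and at 4.25, 3.44 and 2.43 CPM in TET2-KO 1 to 3, a ratio of means of 2.37, or 2.36 with WT 3 and WT 4 alone. In B-1a cells it was at 10.7, 3.06, 12.4 and 10.3 CPM in WT 1 to 4 and at 7.62, 6.67, 8.12 and 1.54 CPM in TET2-KO 1 to 4. Only the library labelled WT 2 kept the B-1a groups from being separate. In B-2 cells the log2 fold change was -0.05 ± 0.50 (edgeR, adjusted p = 0.960), with 3.21 and 8.46 CPM in WT 1 and WT 4 and 6.09, 5.91, 6.87 and 3.36 CPM in TET2-KO 1 to 4. The summed level of 14 macrophage markers was lowest in TET2-KO 4 of B-1a (5012 CPM) and B-2 cells (4515 CPM). These libraries held the least Adam8 among the TET2-KO libraries of their subset. No marker stayed at or under 1 CPM in every library, and only Fcgr1 was at 0 in any, namely in B-1a TET2-KO 4. Lyz2 made up most of each sum (26365 of 29421 CPM in B-1a TET2-KO 2), and single markers differed in order. In B-1a TET2-KO 1 to 4, Adgre1 was at 394, 292, 226 and 45.7 CPM and Vsig4 at 72.7, 159, 91.7 and 37.0 CPM. By the sum, the other TET2-KO libraries ran in another order than Adam8. In B-1a cells TET2-KO 3 held the most Adam8 at a sum of 13315 CPM, and TET2-KO 2 held less at 29421 CPM. In B-2 cells TET2-KO 3 held the most Adam8 at 16753 CPM, below the 19793 and 20260 CPM of TET2-KO 1 and 2. In B-1b cells that sum ran from 13067 to 17902 CPM in WT and from 6578 to 15683 CPM in TET2-KO libraries, with the lowest sum and the least Adam8 both in TET2-KO 3. Its part in the Adam8 values was not tested.

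Ets2 went another way, with no lower level in B-1 TET2-KO libraries and a lower one in B-2 cells. ETS2 is a transcription factor with an ETS DNA-binding domain that acts downstream of MAP kinase signaling. In B-1a cells Ets2 (chromosome 16, 95502942 to 95522095, plus strand) was at 42.0, 18.1, 25.6 and 30.8 CPM in WT 1 to 4 and at 31.9, 41.8, 32.4 and 27.4 CPM in TET2-KO 1 to 4. In B-1b cells it was at 43.8, 38.3, 27.2 and 29.3 CPM in WT 1 to 4 and at 33.1, 41.3 and 50.6 CPM in TET2-KO 1 to 3. The groups overlapped in both subsets, with log2 fold changes of 0.23 ± 0.25 and 0.31 ± 0.22, and in B-1b cells each TET2-KO library lay above WT 3 and WT 4. In B-2 cells Ets2 was at 50.8 and 47.1 CPM in WT 1 and WT 4 and at 21.5, 18.8, 23.9 and 18.3 CPM in TET2-KO 1 to 4. All 4 TET2-KO libraries were below both WT libraries, at a WT to TET2-KO ratio of means of 2.37. The log2 fold change of -1.22 ± 0.18 (95% interval -1.64 to -0.80) had an adjusted p of 0.531 by edgeR over 19786 genes, and adjusted p-values of 0.0134 by DESeq2 and of 0.00616 by edgeR without the filter on low counts. It was -1.17 against WT 4 alone (edgeR, adjusted p = 1.00) and -1.25 against the library labelled WT 1 alone (edgeR, adjusted p = 0.0512).

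**Figure D3:**
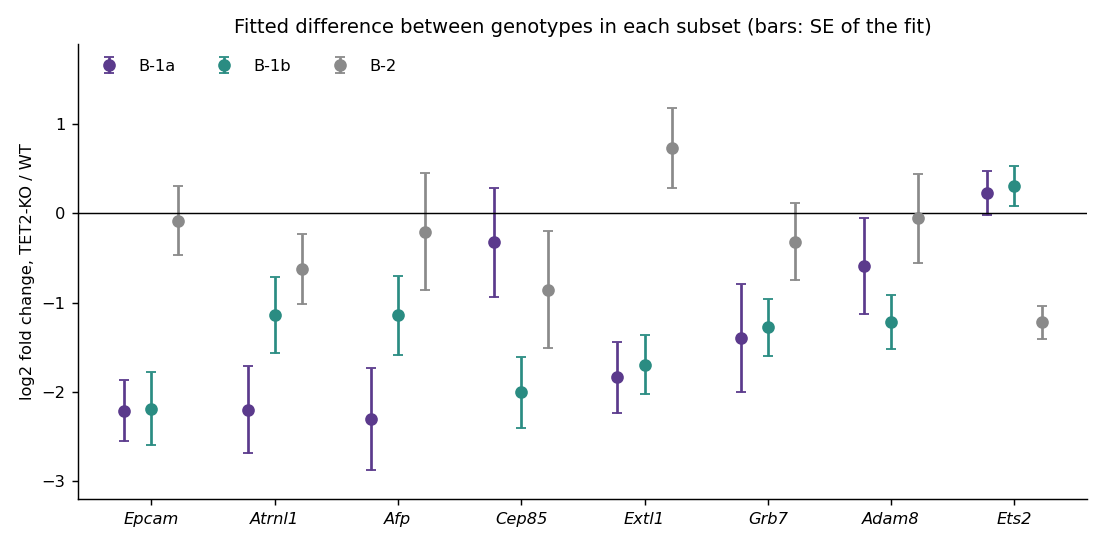
Log2 fold change of TET2-KO over WT for the 8 genes in B-1a (purple), B-1b (green) and B-2 cells (grey), with bars for the SE of the edgeR fit. Epcam, at -2.21 and -2.19 in the B-1 subsets and -0.08 in B-2 cells, and Ets2, at 0.23, 0.31 and -1.22, show opposite patterns.

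Counted over the set, every TET2-KO library was below every WT library for 4 of 8 genes in B-1a cells (3.38% of all genes tested), for 6 of 8 in B-1b cells (3.94%) and for 1 of 8, Ets2, in B-2 cells (7.26%). Without the libraries labelled WT 1 and WT 2 these counts were 6 (7.72% of all genes), 7 (10.7%) and 4 (15.1%), where fewer libraries make a separation easier for any gene. The B-1 counts restate the choice of the genes, and 8.05% of all genes lay, like Ets2, above WT 3 and WT 4 in every B-1b TET2-KO library. The log2 fold change was negative for 7 of 8 genes in each subset (47.6% of all genes in B-1a, 50.5% in B-1b and 41.7% in B-2 cells). The median log2 fold change was -1.62 in B-1a, -1.25 in B-1b and -0.26 in B-2 cells, where all genes tested had medians of 0.02, -0.01 and 0.18. By edgeR with an adjusted p under 0.05, 0 of the 8 genes were called in each subset, where the share of all genes called was 0.0503% for B-1a and 0% for both B-1b and B-2 cells. DESeq2 called 4 lower in B-1a cells (Epcam, Atrnl1, Afp and Extl1), where 0.837% of genes were called lower. It called 3 lower in B-1b cells (Epcam, Cep85 and Extl1, 0.259%). These B-1 calls come from the libraries used in the choice, so they restate it and are no test of the genes. In B-2 cells DESeq2 called 1 lower (Ets2, 0.152%). In B-2 cells, 1 of the 8 genes (Ets2) was lower at an unadjusted p under 0.05, as were 2.86% of all genes, and another 6.01% were higher.

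None of the 8 genes passed the edgeR test in B-2 cells. Of the 7 genes lower in B-1 cells, 6 had a negative log2 fold change in B-2 cells, from -0.05 (Adam8) to -0.85 (Cep85), and Extl1 had a positive one. The 95% intervals of Atrnl1 (-1.53 to 0.28), Afp (-1.71 to 1.30), Cep85 (-2.37 to 0.66), Grb7 (-1.31 to 0.68) and Adam8 (-1.19 to 1.08) all included 0, as did those of Epcam and of Extl1 (-0.30 to 1.76). Of the 2 WT libraries in these fits, the one labelled WT 1 had B-1 rather than B-2 markers. Against WT 4 alone the log2 fold changes were -0.46 for Atrnl1, -0.17 for Cep85, -0.68 for Grb7 and -0.58 for Adam8, and the interval of Extl1 was -0.68 to 0.95.

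WT 3 and WT 4 alone showed the lower TET2-KO levels of 7 genes in B-1b cells, with log2 fold changes from -1.11 (Grb7) to -1.601 (Epcam). In B-1a cells they showed it for 6 genes, from -0.92 (Adam8) to -2.62 (Afp), while Cep85 was at 0.09. The median of the 8 genes without WT 1 and WT 2 became -1.99 in place of -1.62 for B-1a and -1.29 in place of -1.25 for B-1b cells. With WT 1 and WT 2 alone as controls the medians were -1.02 and -1.31. The difference of Epcam was thus larger against WT 3 and WT 4 than against WT 1 and WT 2 in B-1a cells (-2.60 and -1.70) and smaller in B-1b cells (-1.601 and -2.60). Afp leaned on WT 3 and WT 4 in both subsets, at -2.62 and -1.59 against -1.90 and -0.48, and Cep85 leaned on WT 1 and WT 2, at -0.66 and -2.48 against 0.09 and -1.28.

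**Figure D4:**
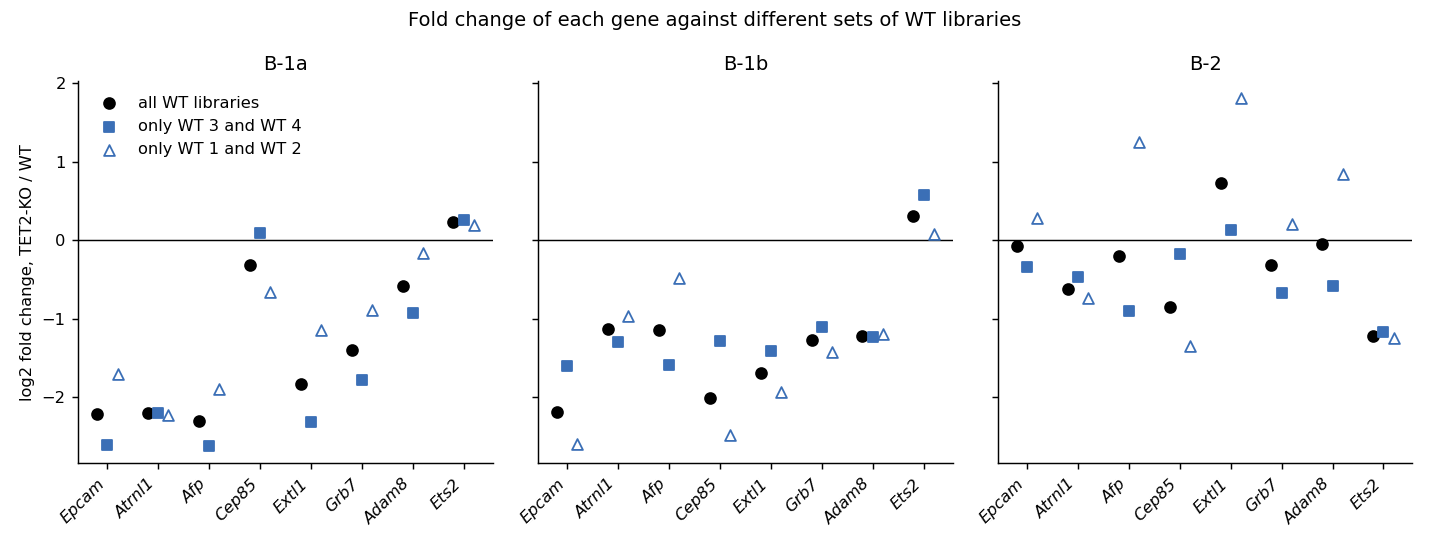
Log2 fold change of TET2-KO over WT for each gene and subset with all WT libraries (black circles), only WT 3 and WT 4 (blue squares) and only WT 1 and WT 2 (open triangles); in B-2 cells each of the last is 1 library, WT 4 or WT 1. Epcam stays between -2.60 and -1.601 in B-1 cells under each choice, and in B-2 cells Afp moves from -0.90 to 1.25.

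The 8 genes differed widely in abundance when CPM was divided by exon length in kilobases. In WT B-1a cells the mean was 30.6 CPM per kilobase for Epcam and 30.4 for Cep85 (39.5 and 22.2 with WT 3 and WT 4 alone), and from 5.16 to 1.595 for Extl1, Ets2, Grb7, Afp, Adam8 and Atrnl1 in this order. By the mean of TET2-KO B-1a libraries Epcam fell behind Cep85, at 6.47 against 23.4 CPM per kilobase, and Ets2 at 5.77 was close to Epcam. Atrnl1 and Afp were least abundant there, at 0.338 and 0.475 CPM per kilobase. Cep85 varied widely between these libraries, up to 51.2 CPM per kilobase in TET2-KO 4. In TET2-KO 3 Epcam at 9.57 lay above Cep85 at 4.11 CPM per kilobase, and in TET2-KO 1, 2 and 4 it lay below.

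The genes known to work with EpCAM were for the most part hardly transcribed in these cells. Of 17 genes for EpCAM partners and epithelial junctions, 11 had a mean under 1 CPM over the libraries and 6 were tested in B-1 cells, of which edgeR called 0. At an unadjusted p under 0.05, 3 of the 6 were lower in B-1a and 1 in B-1b cells, and DESeq2 called 1 of them lower in B-1a and 0 in B-1b cells. The median log2 fold change of the 6 was -0.45 in B-1a and -0.51 in B-1b cells (all genes 0.02 and -0.01). Without WT 1 and WT 2 the medians were -0.64 and -0.51, and 2 of 6 tested in B-1a and 2 of 8 in B-1b cells were lower at an unadjusted p under 0.05. Spint2, an inhibitor of a protease that cleaves EpCAM, was one of the 2 most abundant genes of the list. It was at 78.2 to 122 CPM in WT and 60.3 to 95.4 CPM in TET2-KO B-1a libraries. In B-1b cells it was at 98.6 to 130 and 49.1 to 81.3 CPM. St14, which encodes that protease and is named after its values were seen, was at 4.69 to 17.1 against 2.71 to 3.78 CPM in B-1a cells and at 5.83 to 11.1 against 0.623 to 5.73 CPM in B-1b cells. The other of the 2 most abundant, Cd44, was at 147 to 183 and 117 to 288 CPM in B-1a cells. In B-2 cells Grhl2, an epithelial transcription factor, was called higher by DESeq2, as were 0.703% of all genes. It was at 0 to 0.205 CPM in WT and 0.161 to 6.18 CPM in TET2-KO libraries. Olfactory receptor genes together were at 6.26 and 412 CPM of total counts in B-2 WT 1 and WT 4 and at 270 to 1999 CPM in B-2 TET2-KO libraries. Whether Grhl2 shares in that difference was not tested.

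The lists around the other genes held 0 genes called by edgeR in any subset. Over all genes, an unadjusted p under 0.05 was reached by 4.19% (lower) and 3.66% (higher) in B-1a cells and by 2.18% and 3.3% in B-1b cells. At an unadjusted p under 0.05, of 9 genes of the AFP cluster and its regulators 0 of 2 tested passed in B-1a and 1 of 3 in B-1b cells, Zbtb20, a repressor of Afp, at 59.4 to 164 CPM in WT and 182 to 278 CPM in TET2-KO libraries. Without WT 1 and WT 2, Zbtb20 no longer passed in B-1b cells, at a log2 fold change of 0.43, and passed as lower in B-1a cells at -0.55. Zhx2, the other known repressor, was at 6.75 to 10.2 and 5.29 to 12.4 CPM in B-1a cells. Alb, the neighbour of Afp, had a mean of 0.96 CPM, and Afm on the other side 0.07 CPM, while Afp itself averaged 8.02 CPM in WT B-1a cells.

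Of the 4 attractin genes and partners, 0 passed an unadjusted p under 0.05 in any subset, and the 2 most abundant, Atraid and Mgrn1, were at -0.17 and -0.24 on the log2 scale in B-1a cells. Among 11 centriole genes, Nek2, the kinase that CEP85 restrains, was called lower in B-1a cells by DESeq2 alone, at 3.43 to 5.72 CPM in WT and 1.496 to 2.05 CPM in TET2-KO libraries. The most abundant ones, Cep63 and Cep192, had log2 fold changes of 0.16 and 0.56 in B-1a and of -0.34 and 1.13 in B-1b cells. The median of the list was 0.21 in B-1a and 0.23 in B-1b cells, and 0.12 and 0.35 without WT 1 and WT 2. At an unadjusted p under 0.05 Nek2 was lower in B-1a cells, also without WT 1 and WT 2, and Cep192 was higher in B-1b cells, but not without them. Of 18 genes of heparan sulfate synthesis, 16 were tested in B-1 cells and had a median of -0.07 in B-1a and -0.09 in B-1b cells (-0.05 and -0.18 without WT 1 and WT 2). The chain-building enzyme Ext2 was at -0.24 and -0.20, and B3gat3 at -0.02 and -0.05. At an unadjusted p under 0.05, 1 of the 16 was lower in B-1a cells, the 6-O-sulfotransferase gene Hs6st1 at -0.64. In B-1b cells 1 was lower, Ext1 at -0.68, and 2 were higher, Ndst1 at 0.63 and Hs3st1 at 0.71. Of 18 tested in B-2 cells, Hs6st1 at -0.92 and Ndst1 at -0.48 were lower. Without WT 1 and WT 2, Hs6st1 (-0.55) was lower and Hs3st1 (0.96) higher in B-1a cells, Ext1 (-0.84) was lower and Hs3st1 (0.75) higher in B-1b cells, and 0 of 18 passed in B-2 cells.

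Of the 9 GRB7 relatives and ERBB receptors, Erbb2 stayed under 1 CPM in all libraries, and 0 of the 3 tested in B-1a and 4 tested in B-1b cells passed an unadjusted p under 0.05. Shc1 and Ptk2, the most abundant, were at -0.20 and -0.24 in B-1a cells. The neighbours of Grb7, Mien1 and Ikzf3, were at -0.09 and -0.22 in B-1a and at -0.13 and -0.14 in B-1b cells, against -1.40 and -1.28 for Grb7. Of 11 ADAM proteases, 0 passed an unadjusted p under 0.05 in any subset, and Adam10 and Adam17 were at -0.05 and -0.19 in B-1a and at -0.39 and 0.19 in B-1b cells. Of the 20 ETS factors, 0 of 18 tested passed in B-1a cells, 2 in B-1b cells (Elf2 lower, Elk4 higher) and 1 in B-2 cells (Spib, 358 and 717 CPM in WT and 222 to 345 CPM in TET2-KO libraries), and Ets1, with Spib the most abundant, was at -0.03 in B-2 cells where Ets2 was at -1.22. Without WT 1 and WT 2, 0 of the ETS factors, 0 of the ADAM proteases, 0 of the GRB7 relatives and 0 of the attractin genes passed in any subset.

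**Figure D5:**
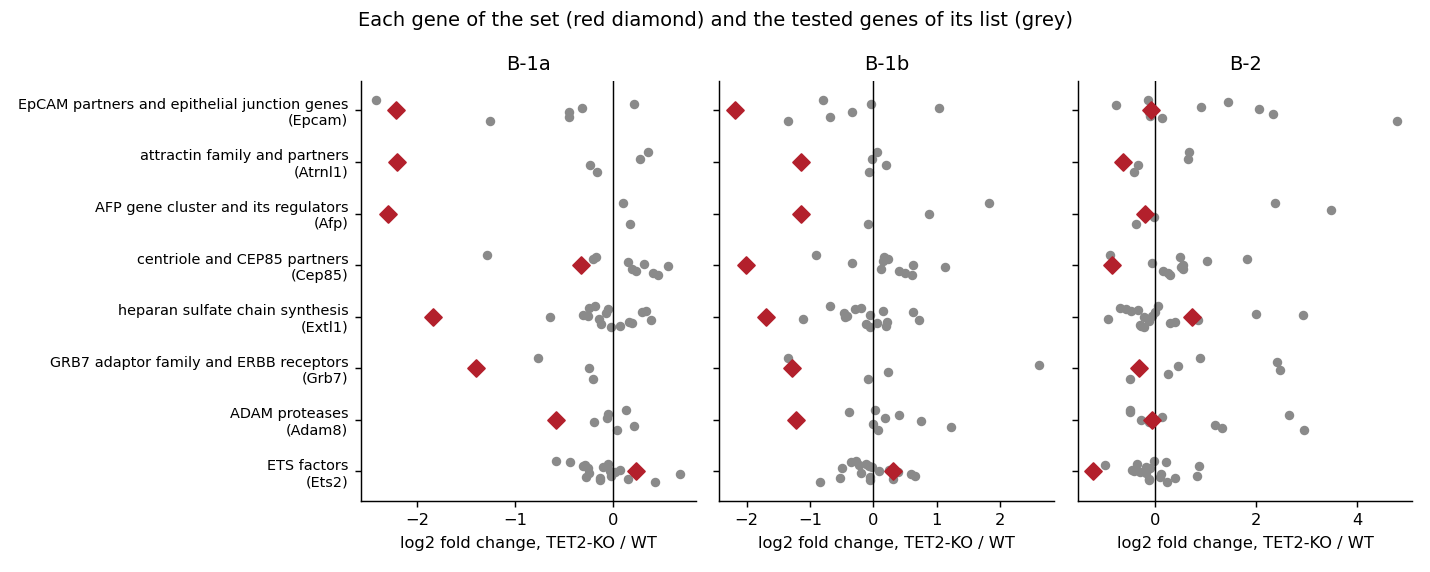
Log2 fold change of TET2-KO over WT in each subset for each of the 8 genes (red diamonds) and for the tested genes of the list written around it (grey dots, one per gene; the horizontal scales differ). In B-1a cells Extl1 at -1.84 and Atrnl1 at -2.20 lie below all tested genes of their lists.

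In B-1 cells the tested neighbours of the 8 genes had log2 fold changes from -0.46 to 0.48, apart from Slc30a2 and from Alb, which was at 1.82 in B-1b cells. Calm2, a neighbour of Epcam, was at -0.22 in B-1a and -0.43 in B-1b cells. Sh3bgrl3, 1.07 kb from Cep85, was at -0.34 and -0.43. Trub1 beside Atrnl1 was at 0.08 and 0.48, and Pafah2 beside Extl1 at -0.01 and 0.23. Tubgcp2 beside Adam8 was at -0.08 and 0.35, and Gm16201, a lncRNA on the opposite strand that overlaps the end of Adam8, at -0.46 and -0.41. Without WT 1 and WT 2 Gm16201 was at -1.05 and -0.71, where counting ignored strand and left out fragments that fell in both genes. The other tested neighbours then lay between -0.34 and 0.59, again apart from Slc30a2 and Alb. Erg, before Ets2, was at a mean of 0.19 CPM.

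Over the 21 libraries, the 5 genes whose log2 CPM ran most like that of Epcam among 22596 others were Ighv2-6-8 (r = 0.83), Ighv1-19 (0.82), Igkv4-71 (0.82), Extl1 (0.81) and Klhl41 (0.81). Ighv2-6-8, Ighv1-19 and Igkv4-71 are immunoglobulin V segments, whose levels follow the rearrangements present in the sorted cells. Ighv1-19 was at 35.3 to 46.0 CPM in WT B-1a and 0.17 to 8.31 CPM in TET2-KO B-1a libraries, and at 20.2 to 74.2 and 3.34 to 4.25 CPM in B-1b cells. Near-identical V segments share reads, which leaves such counts uncertain. Klhl41, a kelch protein known from muscle, was at 1.99 to 25.1 and 0 to 1.31 CPM in B-1a cells. Over the 16 libraries without WT 1 and WT 2 the most alike were Lurap1 (0.87), Atrnl1 (0.85), 4930580E04Rik (0.84), Lncbate6 (0.83) and Extl1 (0.82), so that only Extl1 stood in both lists. Among the 8 genes, r with Epcam over 21 libraries was 0.75 for Grb7, 0.72 for Atrnl1, 0.70 for Afp, 0.63 for Adam8, 0.39 for Cep85 and 0.02 for Ets2. The values describe libraries that share subset, genotype and depth and that were in part used to choose the genes.

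Markers of other cells were measured beside these values. Of 10 mesothelial markers, 5 were at or under 1 CPM in every library, among them Krt7 at 0 to 0.777 CPM, and Msln was at 0 in 10 libraries. Their sum overlapped between genotypes in B-1a (5.8 to 139 CPM in WT, 53.8 to 91.0 in TET2-KO) and B-1b cells (20.2 to 192 and 35.1 to 61.1). Krt8 and Krt18 made up most of the sum in these libraries. Krt8 was at 78.5 and 116 CPM in the B-1a libraries WT 4 and WT 3. It was at 163 CPM in the library labelled B-1b WT 1, which held the most Epcam. B-1a WT 3 came next in both, at 116 CPM of Krt8 and 111 CPM of Epcam. In other libraries the order differed. The one labelled B-1b WT 2 held 16.9 CPM of Krt8 and 69.2 CPM of Epcam, and B-1a TET2-KO 1 held 48.7 and 12.6 CPM. Krt18, named after its values were seen, went the other way in B-1a cells, at 1.17 to 22.7 CPM in WT and 28.6 to 40.7 CPM in TET2-KO libraries. The 8 dendritic cell markers, 2 of them at or under 1 CPM throughout, summed to 28.1 to 117 CPM in WT and to 8.3 to 20.4 CPM in TET2-KO B-1a libraries, without overlap. Of the 8, only Cd209a, named after its values were seen, was itself without overlap there. It was at 18.2 to 51.6 CPM in WT and 4.497 to 12.7 CPM in TET2-KO B-1a libraries. Of all genes tested in B-1a cells, 3.38% were without overlap in this direction. Flt3 added 60.1 CPM to the highest sum, that of the library labelled B-1a WT 1, which had B-2 markers. In B-1b cells the 8 markers summed to 17.9 to 73.1 and 16.6 to 21.7 CPM and in B-2 cells to 15.2 to 43.1 and 27.8 to 62.2 CPM. Plasma cell markers summed to 344 to 580 CPM in WT and 205 to 376 CPM in TET2-KO B-1a libraries. Erythroid markers summed to 11.3 to 1704 CPM in WT and 1.61 to 30.1 CPM in TET2-KO B-1a libraries, with overlap. The highest sum was that of the library labelled B-1a WT 1, and without WT 1 and WT 2 the WT sums were 11.3 to 281 CPM. The sums of B cell markers (19625 to 25648 and 13882 to 23977 CPM in B-1a), of T or NK cell markers (18.2 to 108 and 33.4 to 77.4) and of granulocyte or mast cell markers (95.8 to 419 and 208 to 379) overlapped there. Without WT 1 and WT 2 the B-1a sums of mesothelial markers (98.7 to 139 against 53.8 to 91.0 CPM), of T or NK cell markers (93.0 to 108 against 33.4 to 77.4) and of granulocyte or mast cell markers (389 to 419 against 208 to 379) did not overlap and were lower in TET2-KO libraries. Within that mesothelial sum, Krt8 was lower and Krt18 higher in each B-1a TET2-KO library than in WT 3 and WT 4. Of all genes tested in B-1a cells, 7.72% were lower without overlap against WT 3 and WT 4. Most of the T or NK cell sum was Cd3g and Lck, each lower in every TET2-KO library. Cpa3 and Mcpt4 made up most of the granulocyte or mast cell sum. Mcpt4 was lower in every TET2-KO library, but Cpa3 overlapped (219 and 221 against 123 to 243 CPM). Csf3r overlapped too (9.58 and 13.5 against 1.59 to 14.7 CPM). These genes were named after their values were seen. In B-1b cells T or NK cell markers summed to 44.5 to 96.5 CPM in WT and 18.3 to 42.3 CPM in TET2-KO libraries, without overlap. The part of any of these cells in the levels of the 8 genes was not tested.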

How the data were processed

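The 21 libraries, 1 for each sorted sample, were grouped by subset and genotype as their labels give them. The deposited files hold the authors' count of fragments per gene, as whole numbers without normalization. To make them, the authors used fastp for trimming, STAR for alignment to GRCm39 and featureCounts 1.6.1 for counting on GENCODE vM32, where strand was ignored and fragments over several genes were left out. The paper and the labels describe the library preparation differently (amplified full-length cDNA, or poly-T selection and random priming), so the selection step is not certain. Symbols came from GENCODE vM39 for 56310 of 56953 genes.

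Each subset was fitted on its own with edgeR 4.0.16 under R 4.3.3 (with limma 3.58.1), using TMM, filterByExpr by group, robust quasi-likelihood test, Benjamini-Hochberg adjustment at 0.05. The fits were tested on simulated data with 200 changed genes. Levels are CPM on TMM-scaled totals of all 21 libraries, correlations use log2(CPM + 0.5), and list medians are over the genes tested. The 8 genes, the pathway lists and the marker lists were chosen with earlier results of these data known. Named besides are the 5 genes most correlated with Epcam, the 2 most abundant genes of each list and any called, neighbouring genes, and markers at 0 or at the highest level; further list genes with an unadjusted p under 0.05 were added after their values were seen. Some genes that this rule names are not reported here, but stay in the counts and medians of their lists. Alternatives were DESeq2 1.42.0, a filter of 10 counts in every library or none at all, RLE size factors, TMM without immunoglobulin genes, counts thinned to 9667187 per library, the replicate number as a block, all libraries in one fit, CPM on total counts, and leaving out libraries. Leaving out TET2-KO 4 together with WT 1 and WT 2, an unblocked fit of the libraries of the blocked fit, and the lists and neighbours without WT 1 and WT 2 were added after the data were seen. A gene at a count as low as 4 carries a counting error that CPM does not show. Fits against 1 WT library assume that it varies like the others.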

Additional observations from a re-analysis of the deposited data

Results flagged for a closer look

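Of 32 groups of 4 libraries, 4 held a library far from the other 3 by Dixon's gap ratio, a rule that flags about 1 in 20 groups by chance. Epcam was at 21.01 CPM in B-1a TET2-KO 3 and at 11.4 to 12.6 CPM in the other TET2-KO libraries, still below all WT libraries. Cep85 was at 160 CPM in B-2 TET2-KO 4 and at 33.6 to 41.0 CPM in the others. Extl1 was at 18.6 CPM in B-2 TET2-KO 3, where the others held 11.8 to 12.3 CPM, and Grb7 was at 3.22 CPM in B-2 TET2-KO 4, where the others held 4.51 to 4.66 CPM.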

How the results depend on the processing

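Of 24 log2 fold changes (8 genes in 3 subsets), 19 kept their sign under every alternative run. In B-1 cells 15 of 16 did, all but Cep85 in B-1a cells, and in B-2 cells 4 of 8 (Atrnl1, Cep85, Extl1 and Ets2). In B-1 cells Epcam lay between -2.60 and -1.601 over all alternatives. Of 48 group means, 4 moved by more than 1 SD with CPM on total counts.

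The number of genes called changed far more, and the cause was not tested. In B-1a cells edgeR called 7 genes, DESeq2 189, edgeR without a filter 318, after thinning 12, with all 21 libraries in one fit 80, without WT 1 and WT 2 0 (485 at an unadjusted p under 0.05), without WT 3 and WT 4 101, and without WT 1, WT 2 and TET2-KO 4 56. Leaving out each library in turn gave 0 to 6 (0 without TET2-KO 2 or TET2-KO 3, 1 without WT 2). In B-1b cells the counts were 0 (787 at an unadjusted p under 0.05), 60 with DESeq2, 131 without a filter and 2 without WT 3 and WT 4, and leaving out each library in turn gave 0 to 0. In B-2 cells they were 0, 169 with DESeq2, 167 without a filter, 576 without WT 4, that is against the library labelled WT 1 alone, and 1 without WT 1, WT 2 and TET2-KO 4, so leaving out single libraries gave 0 to 576. The median log2 fold change of all genes in B-2 cells was 0.18 by edgeR, 0.86 by DESeq2 and 1.18 without a filter.

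Whether the replicate numbers paired the samples was not settled. Correlations of same-numbered libraries were 0.24, -0.05, -0.08 and 0.05 in B-1a cells. They were 0.15, -0.09 and 0.05 in B-1b and 0.21 and 0.37 in B-2 cells. The same number was the best match for numbers 1 and 4 in B-1a and 1 in B-1b cells, and another number was elsewhere. Pairs numbered 1 and 2 include WT libraries whose markers went against the label, and low correlations cannot exclude a pairing. With the number as a replicate block the fit called 48 genes in B-1a and 0 in B-1b and B-2 cells, and the signs of the 8 genes were the same. Depth limits Afp, Atrnl1, Grb7 and Adam8 most, whose lowest counts in a library were 4, 20, 20 and 27.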
